A study of Callithrix jacchus with 4 samples.

Results

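The cell cycle and mitosis genes described here are 40 transcripts in brain tissue of the common marmoset (Callithrix jacchus), chosen by symbol for their part in DNA replication (12 S-phase genes) or in mitosis (28 genes). Of the 35205 genes in the count table, 39 of these 40 were matched. UBE2C was not analysed here. The low-count filter left 37 members among the 16956 genes tested, all 12 S-phase genes and 25 mitotic genes. AURKB and CENPF did not pass it and are given by their counts only. The study sequenced poly(A) RNA from wild-type marmosets and from FMR1 mutant marmosets made with CRISPR/Cas9, all at postnatal day 5, with 2 libraries in each group. FMRP, the product of FMR1, binds mRNAs in neurons and controls how they are translated. The design text names the forebrain with cortex, striatum and hippocampus, whereas the labels give the tissue as brain, so the region behind each library is not known here. Sex, litter and the exact mutation are not given in the labels, nor is it stated that the libraries of a group come from separate animals, so each p-value reflects the spread among these samples, which may be technical.

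A dividing cell copies its DNA in S phase with a helicase made of the MCM proteins, the sliding clamp PCNA and a supply of deoxynucleotides. It then enters mitosis under CDK1 and cyclin B, condenses its chromosomes, attaches them to the spindle through kinetochores and separates them once the spindle checkpoint is satisfied. Mitotic transcripts build up late in the cycle and are scarce in resting cells, whereas many replication transcripts are also present at a low level outside the cycle. In the primate forebrain around birth most neurons have stopped dividing, and the cells that still cycle include oligodendrocyte precursors, the remaining progenitors along the ventricles, other glia, microglia and vessel cells.

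Libraries held between 12331639 and 13455702 counts, and FMR1 itself was counted 1144 and 966 times in wild-type and 1062 and 1603 times in mutant libraries, with overlapping levels, so its RNA does not check the genotype labels. Wild-type replicate 1 stood apart in thalamic markers (TCF7L2 at 1272 counts, against 118 to 139 in each of the other libraries). Mutant replicate 1 stood apart in the choroid plexus transcript TTR (1244 counts, against 8 to 89 in each of the other libraries). Values below are ordered as wild-type replicates 1 and 2, then mutant replicates 1 and 2. CPM means counts scaled to the size of the library, and each fold change sets mutant over wild-type. Levels are not compared between genes, since counts were not divided by transcript length.

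Of the 37 members tested, 2 fell and 0 rose in the mutant libraries (edgeR quasi-likelihood test, Benjamini-Hochberg adjusted p under 0.05). Both, MKI67 and SKA1, are mitotic. Over all genes tested, 2.23% changed, with 1.57% lower and 0.661% higher. DESeq2 called 0 of the members. The 12 S-phase members had 0 calls (0 also at an unadjusted p under 0.05, which 7.75% of all genes tested met with a lower and 5.64% with a higher value), with a median log2 fold change of 0.07. The 25 mitotic members had a median of -0.25, and 18 of them had a negative log2 fold change, while the median over all genes tested was -0.004. These members and groupings were chosen with earlier results of these data known, and SKA1 was among those results, so its call is no independent support. SKA1 also passed the low-count filter only through the wild-type libraries, where it was counted 20 and 16 times. In the mutant libraries it was counted 2 and 0 times. MKI67 is the only call besides SKA1. CCNB2 and BUB1, which were not called, met the filter in both wild-type libraries but not in both mutant libraries. Members are also described below by whether both mutant libraries lay below or above both wild-type libraries. Over all genes tested this held for 21.8% (below) and 21.4% (above).

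**Figure D1:**
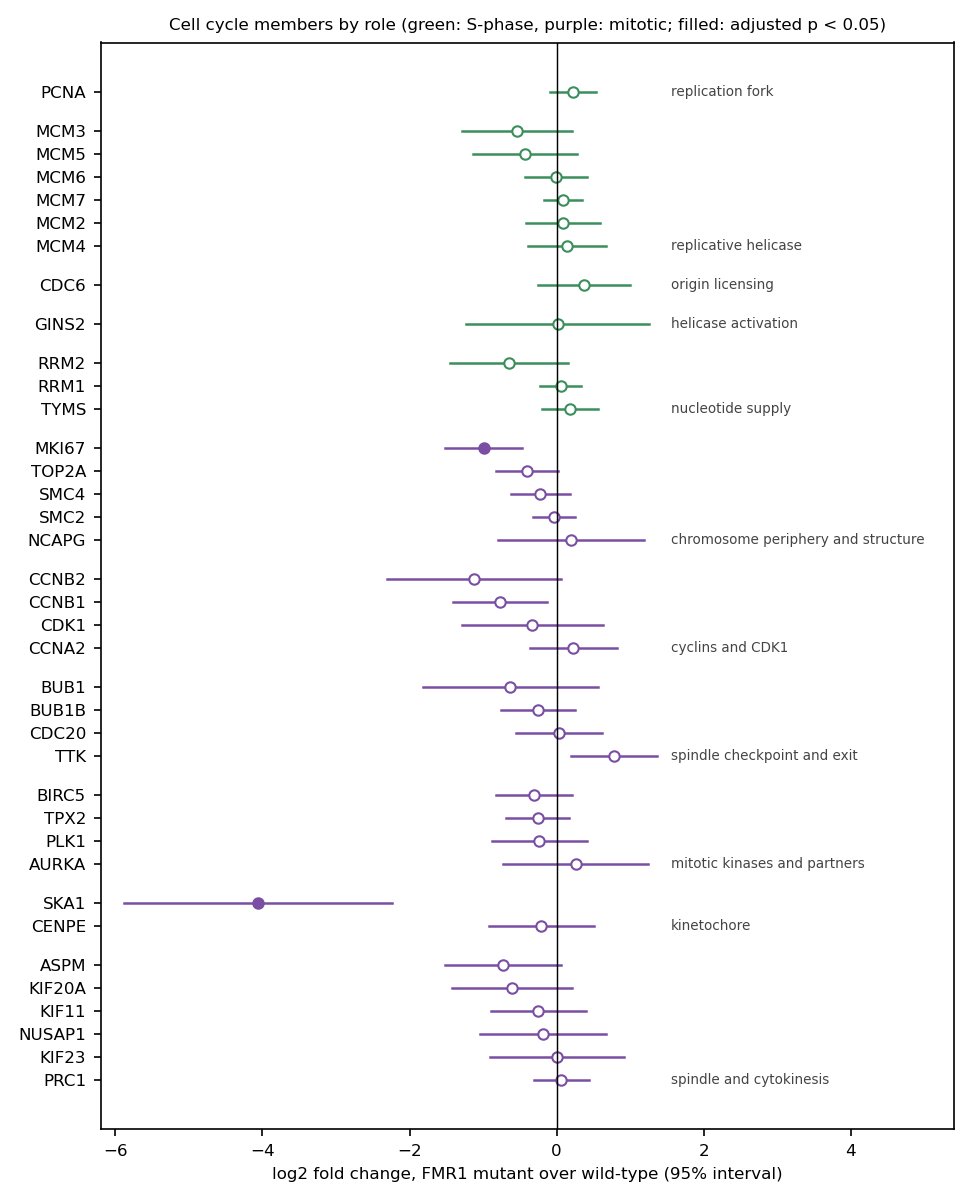
Log2 fold change (x axis, mutant over wild-type) of the 37 members tested, with the 95% interval of each as a horizontal line, ordered by role. Filled points are the 2 members that passed the test, MKI67 at -0.99 and SKA1 at -4.06; the interval of most other members spans 0.

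MKI67, the protein that coats mitotic chromosomes and serves as the standard marker of cycling cells, was counted 120 and 126 times in wild-type and 56 and 73 times in mutant libraries. Both mutant libraries lay below both wild-type libraries, at 4.85 ± 0.807 CPM (SD, n = 2) against 9.66 ± 0.853 CPM (SD, n = 2). The log2 fold change was -0.99 (SE 0.26, 95% interval -1.51 to -0.47, edgeR quasi-likelihood with Benjamini-Hochberg adjusted p = 0.0288). DESeq2 gave an adjusted p of 0.187 at the same size. Among the fits that left out 1 library, MKI67 passed only without wild-type replicate 1 (adjusted p = 0.0231), with 0.0878 without wild-type replicate 2, 0.332 without mutant replicate 1 and 0.0793 without mutant replicate 2 (edgeR quasi-likelihood). The log2 fold change stayed between -1.17 and -0.83 in those fits. In bulk tissue, fewer cycling cells and less MKI67 RNA per cell cannot be told apart.

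SKA1, a subunit of the complex that keeps kinetochores attached to shrinking microtubules, was counted 20 and 16 times in wild-type libraries and 2 and 0 times in mutant libraries. The groups did not overlap, but the whole result rests on 36 counts against 2, or 18.7 times as many after scaling (95% counting interval 4.82 to 161). The edgeR quasi-likelihood fit gave a log2 fold change of -4.06 (SE 0.90, Benjamini-Hochberg adjusted p = 0.00768), a size that depends on the prior count. It did not pass by DESeq2 (log2 fold change -4.21, adjusted p = 0.137) or, with edgeR, without mutant replicate 2 (-3.12, adjusted p = 0.135), and a filter at a mean of 1 CPM removed it. With any 1 library left out the fitted value ranged from -7.20, without mutant replicate 1, to -3.12. Its partners in the complex did not share this pattern. SKA2 was counted 442, 292, 382 and 439 times (log2 fold change 0.11, SE 0.16), and SKA3 6, 8, 6 and 11 times, too few to be tested.

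**Figure D2:**
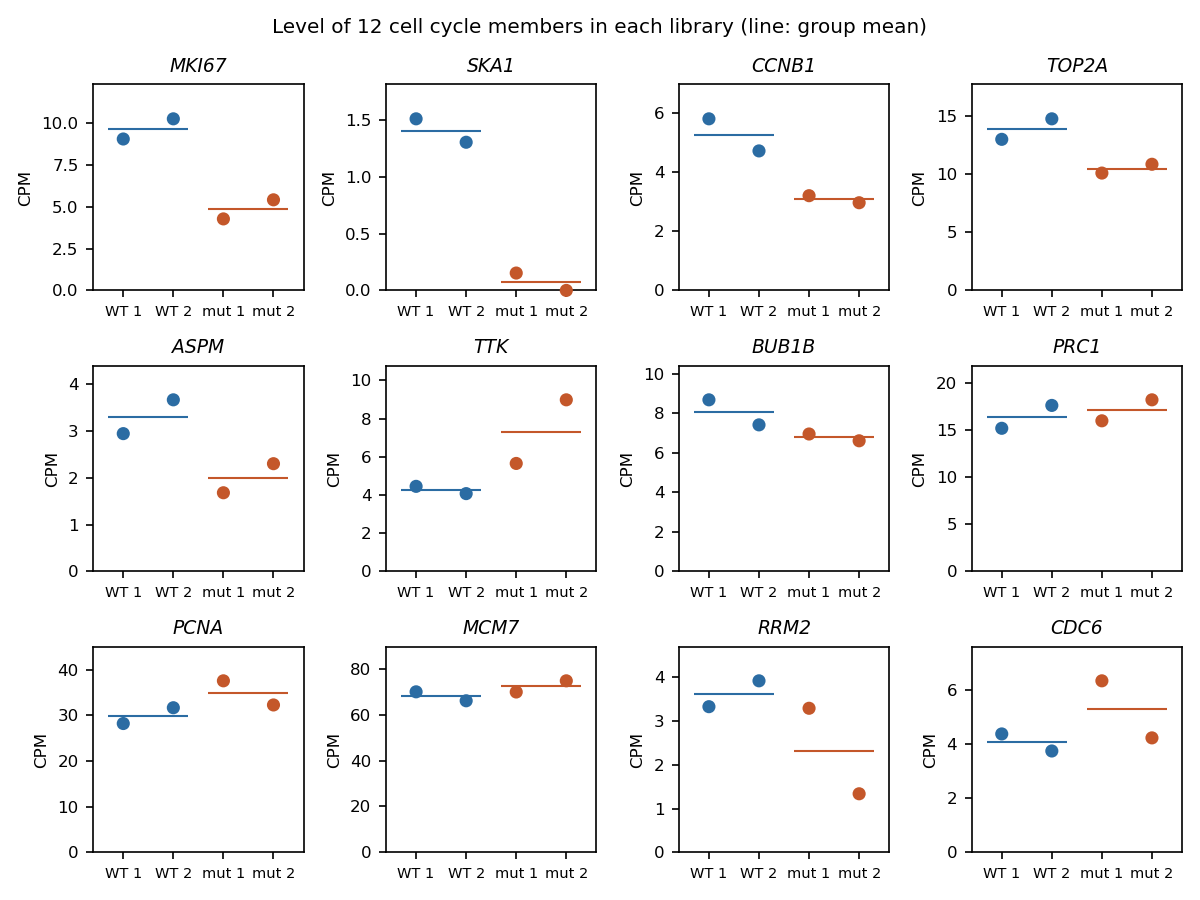
CPM of 12 members in each of the 4 libraries, with each y axis starting at 0 and a line at the mean of each group (blue wild-type, orange FMR1 mutant). MKI67, SKA1, CCNB1, TOP2A and ASPM lie below the wild-type libraries in each mutant library, TTK is higher in both, and PRC1, MCM7 and CDC6 overlap between groups.

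The other chromosome proteins gave 0 calls. TOP2A, the topoisomerase that untangles sister chromatids, was counted 172, 181, 132 and 146 times. Both mutant libraries were below both wild-type libraries, but TOP2A did not pass (log2 fold change -0.40, SE 0.21, 95% interval -0.82 to 0.01, adjusted p = 0.393). The 3 condensin members, which compact chromosomes, overlapped between groups. SMC2 was counted 582, 464, 496 and 564 times (log2 fold change -0.04, SE 0.14), SMC4 181, 225, 166 and 198 times (-0.22, SE 0.20) and NCAPG 22, 15, 27 and 17 times (0.20, SE 0.49). The 95% interval for SMC2, -0.33 to 0.26, does not reach the value of MKI67.

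Among the cyclins and their kinase, both B-type cyclins were low in both mutant libraries and none of the 4 genes passed. CCNB1, the cyclin that activates CDK1 at the entry into mitosis, was counted 77, 58, 42 and 40 times. Its CPM was 5.27 ± 0.768 (SD, n = 2) in wild-type and 3.09 ± 0.169 (SD, n = 2) in mutant libraries, with a log2 fold change of -0.77 (SE 0.32, adjusted p = 0.251). CCNB2 was counted 19, 19, 13 and 5 times (log2 fold change -1.12, SE 0.58), with a value of -0.58 without mutant replicate 2 and of -1.98 without mutant replicate 1. CDK1, the kinase that drives mitosis, was counted 21, 26, 16 and 23 times and overlapped between groups (-0.33, SE 0.47). CCNA2, which acts from S phase to early mitosis, also overlapped, at 59, 66, 64 and 89 counts, and had a positive log2 fold change (0.23, SE 0.29).

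The spindle checkpoint genes did not move in 1 direction. TTK, the kinase MPS1 that starts checkpoint signalling at unattached kinetochores, was the 1 mitotic member with both mutant libraries above both wild-type libraries, at 59, 50, 74 and 121 counts. Its CPM was 4.26 ± 0.269 (SD, n = 2) in wild-type and 7.31 ± 2.35 (SD, n = 2) in mutant libraries, and it did not pass (log2 fold change 0.78, SE 0.29, 95% interval 0.19 to 1.37, adjusted p = 0.182). Without mutant replicate 2 the log2 fold change of TTK was 0.41, and without mutant replicate 1 it was 1.07. BUB1 and BUB1B, the kinase and the pseudokinase of the same checkpoint, were lower in both mutant libraries after scaling. The gap to wild-type replicate 2 was small, for BUB1B 7.41 CPM there against 6.95 and 6.60 CPM in the mutant libraries. BUB1 was counted 19, 11, 10 and 10 times (log2 fold change -0.63, SE 0.58) and BUB1B 115, 91, 91 and 89 times (-0.25, SE 0.25). CDC20, which activates the anaphase-promoting complex once the checkpoint is released, was counted 60, 87, 85 and 72 times and overlapped (0.03, SE 0.29).

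The mitotic kinases and their partners gave 0 calls among the 4 tested. BIRC5 (survivin), the subunit that targets Aurora B to centromeres, was counted 99, 99, 89 and 77 times. The fitted log2 fold change was -0.31 (SE 0.25, adjusted p = 0.660). TPX2, the spindle activator of Aurora A, was counted 157, 148, 138 and 127 times (-0.26, SE 0.21). Both mutant libraries were below both wild-type libraries for these 2 genes. AURKA (15, 21, 26 and 19 counts, 0.26, SE 0.49) and PLK1 (59, 60, 64 and 41 counts, -0.24, SE 0.32) overlapped between groups, as did the untested AURKB (9, 17, 9 and 6 counts).

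At the kinetochore, CENPE, the motor that carries chromosomes to the spindle equator, overlapped between groups at 44, 51, 32 and 54 counts (log2 fold change -0.21, SE 0.35). CENPF was counted 12, 9, 3 and 8 times. Its 21 wild-type counts against 11 mutant counts amount to 1.99 times as many after scaling (95% counting interval 0.916 to 4.56), so no difference was detectable at this depth.

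Among the 6 spindle and cytokinesis genes, ASPM and KIF20A were lower in both mutant libraries (33.3%, against 21.8% of all genes tested) and 0 passed. ASPM, a spindle pole protein needed for a full-sized primate cortex, was counted 39, 45, 22 and 31 times. The fitted log2 fold change was -0.72 (SE 0.39, adjusted p = 0.429). KIF20A, a kinesin of the cleavage furrow, was counted 39, 33, 25 and 24 times (-0.61, SE 0.40). PRC1, which bundles the microtubules of the central spindle, was counted 201, 216, 209 and 245 times (0.06, SE 0.18), and KIF23, its partner there, 20, 32, 18 and 37 times (0.01, SE 0.45). The bipolar spindle motor KIF11 (63, 54, 59 and 43 counts, -0.25, SE 0.32) and the microtubule bundler NUSAP1 (28, 31, 33 and 21 counts, -0.18, SE 0.42) also overlapped. PRC1 and KIF23 thus lay close to 0, and the sign of each turned in 2 of the fits without 1 library. The other 4 genes of this role had negative log2 fold changes.

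Among the S-phase members, the fork and helicase genes had values on both sides of 0. PCNA was counted 374, 389, 492 and 435 times, with both mutant libraries above both wild-type libraries. PCNA did not pass, with a log2 fold change of 0.22 (SE 0.15, 95% interval -0.09 to 0.53, adjusted p = 0.577). MCM7, the helicase subunit with the most counts, was counted 927, 811, 915 and 1007 times and overlapped (0.09, SE 0.13). MCM2 (94, 94, 116 and 92 counts, 0.09, SE 0.25), MCM4 (85, 72, 90 and 90 counts, 0.14, SE 0.26) and MCM6 (200, 133, 175 and 168 counts, -0.01, SE 0.21) were also close to 0. MCM3 (61, 35, 37 and 31 counts, -0.54, SE 0.37) and MCM5 (57, 43, 38 and 39 counts, -0.43, SE 0.34) had the lowest values of the 6 subunits, whose proteins form the helicase ring together. For MCM3 the difference rests on wild-type replicate 1, without which the log2 fold change was -0.15.

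The licensing factor CDC6, which loads the helicase onto origins, was counted 58, 46, 83 and 57 times. The fitted log2 fold change was 0.38 (SE 0.31, adjusted p = 0.660), and the groups overlapped. GINS2, a subunit of the complex that switches the helicase on, was counted 12, 9, 12 and 10 times (0.01, SE 0.61). Neither subunit of ribonucleotide reductase, which makes deoxynucleotides, passed. RRM1, the large subunit, was counted 655, 565, 639 and 679 times (0.06, SE 0.14). RRM2, the small subunit that is made in S phase, was counted 44, 48, 43 and 18 times, with mutant replicate 2 far below the rest (-0.65, SE 0.40, adjusted p = 0.512). Without mutant replicate 2 the log2 fold change of RRM2 was -0.13. TYMS, which makes thymidylate, was counted 191, 174, 228 and 202 times and was higher in both mutant libraries (0.18, SE 0.19).

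Set against each other, the mitotic members were lower in the mutant libraries relative to the S-phase members. Their summed level was 174 and 183 CPM in the wild-type and 153 and 162 CPM in the mutant libraries, which do not overlap. The S-phase sum was 208 and 197 CPM in wild-type and 219 and 210 CPM in mutant libraries, with the mutant libraries slightly above. The ratio of the mitotic to the S-phase sum was 0.838 and 0.931 in wild-type and 0.698 and 0.771 in mutant libraries. The mean ratio was 0.884 ± 0.0655 (SD, n = 2) and 0.734 ± 0.0517 (SD, n = 2), a difference of -0.27 on the log2 scale, and between -0.34 and -0.19 with any 1 library left out. With 2 libraries a group this ratio is given as a description and was not tested.

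**Figure D3:**
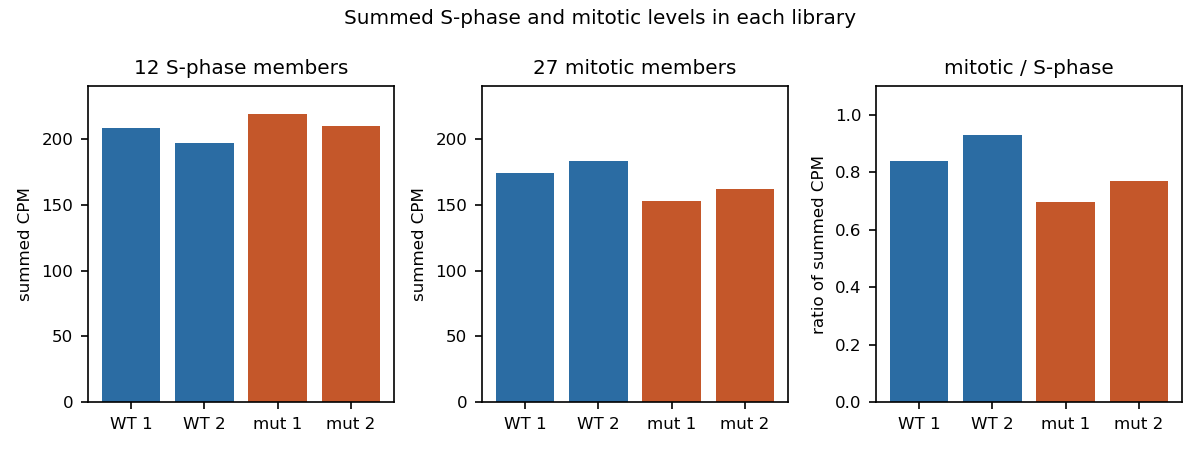
Bars show the summed CPM of the 12 S-phase members (left), that of the 27 mitotic members (middle) and their ratio (right) in each library, all from 0. The mitotic sum and the ratio are lower in both mutant libraries, at 153 and 162 CPM and at 0.698 and 0.771.

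A few genes with many counts weigh on these sums. Counts of MCM7 and RRM1 made up most of the S-phase sum, and SMC2 had the most counts of the mitotic members, which reflects transcript length as well as level. Without these 3 genes the ratio was 1.47 and 1.71 in wild-type and 1.15 and 1.42 in mutant libraries, still without overlap. The mean log2 level of mitotic members less that of S-phase members, which gives each gene equal weight, was -1.12 and -0.88 in wild-type and -1.37 and -1.15 in mutant libraries. The lowest wild-type and the highest mutant library are close on this measure. Leaving MKI67 and SKA1 out of the mitotic sum gave 164 and 172 CPM in wild-type and 148 and 156 CPM in mutant libraries, so the difference in the sum does not rest on the 2 called genes alone. Among the mitotic members, mean CPM differed most between groups for MKI67 (-4.81), TOP2A (-3.40), TTK (3.05), SMC4 (-2.30) and CCNB1 (-2.18). Among the S-phase members it differed most for PCNA (4.98) and MCM7 (4.31).

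By position of the libraries, 11 of the 25 mitotic members tested had both mutant libraries below both wild-type libraries and 1, TTK, had both above. Over all genes tested these shares were 21.8% below and 21.4% above. Of the 11, SKA1 passed the low-count filter only through the wild-type libraries. CCNB2 and BUB1 met the filter in both wild-type libraries but not in both mutant libraries. The place of these genes below is therefore no independent support. Of the 12 S-phase members, 3 lay below (MCM3, MCM5 and RRM2) and 3 above (PCNA, MCM4 and TYMS), close to the shares over all genes. For MCM3 the gap was narrow, with 2.82 CPM in mutant replicate 1 against 2.85 CPM in wild-type replicate 2. The mitotic median depended on which library was left out, from -0.17 without wild-type replicate 2 to -0.34 without mutant replicate 1. The S-phase median lay between -0.0002 (without mutant replicate 1) and 0.14 (without wild-type replicate 1).

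Further genes of both phases and of the machinery that starts and ends the cycle were read from longer lists. Of 51 other replication genes tested, 0 were called by edgeR or DESeq2 (1 higher and 2 lower at an unadjusted p under 0.05), and the median log2 fold change was 0.008. The 2 with the smallest p pointed in opposite directions. DBF4, the activator of the kinase that fires origins, was counted 46, 48, 23 and 25 times (-1.03, SE 0.38, adjusted p = 0.182). ORC6, a subunit of the origin recognition complex, was counted 11, 18, 37 and 32 times (1.18, SE 0.46, adjusted p = 0.217). Neither gene had overlapping groups, but both were picked for a small p and both counts are low. Over this list, 17.6% of genes had both mutant libraries below both wild-type libraries and 17.6% had both above. Over all genes tested these shares were 21.8% and 21.4%.

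Of 59 other mitotic genes tested, 2 fell and 0 rose, 41 had a negative log2 fold change and the median was -0.14. In 21 of them both mutant libraries were below both wild-type libraries (35.6%, against 21.8% of all genes tested), and in 7 both were above (11.9%, against 21.4%). Of the 21, ZWINT passed the low-count filter only through the wild-type libraries. TROAP, DEPDC1, SHCBP1 and CDCA5 met the filter in both wild-type libraries but not in both mutant libraries. The place of these genes below is no independent support. Calls lower were 1.57% of all genes tested. CIT, which encodes citron kinase of the cleavage furrow and, from the same gene, a shorter neuronal protein of synapses, was counted 2004, 1528, 1143 and 1381 times. Its log2 fold change was -0.54 (SE 0.13, edgeR quasi-likelihood adjusted p = 0.0151, DESeq2 adjusted p = 0.0234). The call was lost when either replicate 1 was left out (log2 fold change -0.39 and adjusted p = 0.230 for wild-type, -0.43 and 0.216 for mutant), and counts per gene do not separate its products. ANLN (anillin), the scaffold of the contractile ring that is also found in myelin, was counted 61, 111, 39 and 36 times. Its log2 fold change was -1.26 (SE 0.33, edgeR quasi-likelihood adjusted p = 0.0316, DESeq2 adjusted p = 0.224). Among the fits without 1 library it passed only without wild-type replicate 1, and without wild-type replicate 2 its log2 fold change was -0.70.

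The summed level of these other mitotic genes was 554 and 547 CPM in wild-type and 482 and 483 CPM in mutant libraries. Much of that difference was CIT, without which the sums were 403 and 422 CPM in wild-type and 395 and 380 CPM in mutant libraries. ZWINT, a kinetochore adaptor singled out here after its values were seen, was counted 122, 14, 7 and 7 times, with a log2 fold change of -3.28 (SE 1.47) that did not pass in the edgeR fit (adjusted p = 0.524). ZWINT did pass by DESeq2 (adjusted p = 0.00801), whose 2 calls in this list were ZWINT and CIT. In edgeR it also passed without a low-count filter (0.00156), with the replicate block (0.0019) and without wild-type replicate 2 (1.56e-16). Without wild-type replicate 1, which holds most of its counts, its log2 fold change was -1.10 (adjusted p = 0.661).

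**Figure D4:**
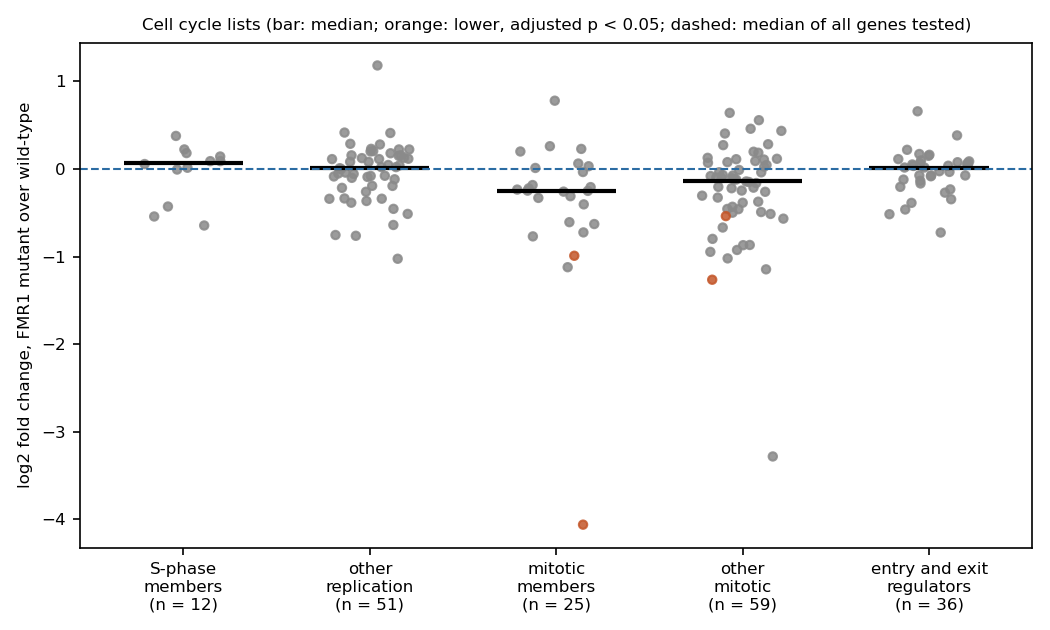
Log2 fold change (y axis) of each tested gene in 5 cell cycle lists, with a bar at the median of each list and a dashed line at the median of all genes tested. The mitotic members (-0.25) and the other mitotic genes (-0.14) have medians below 0, those of the other 3 lists lie between 0.008 and 0.07, and the 4 orange points are the genes that fell.

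Among 36 genes that start, restrain or end the cycle, 0 were called by edgeR or DESeq2 (0 higher and 2 lower at an unadjusted p under 0.05), and the median was 0.02. CCND1, the cyclin that couples growth signals to cycle entry, was counted 535, 418, 374 and 404 times (log2 fold change -0.35, SE 0.15, adjusted p = 0.290). CDKN2C, an inhibitor of CDK4 and CDK6, was counted 67, 45, 37 and 33 times (-0.73, SE 0.35, adjusted p = 0.351). Both mutant libraries were below both wild-type libraries for these 2 genes, which were picked for the smallest p. Over this list 16.7% of genes lay below in this way and 13.9% above, against 21.8% and 21.4% of all genes tested.

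Markers of cell lineages that can hold dividing cells in the newborn brain were read beside these values. Over all genes tested, 1.57% were called lower and 0.661% higher. At an unadjusted p under 0.05 (edgeR quasi-likelihood) the shares were 7.75% lower and 5.64% higher. The 9 oligodendrocyte precursor markers summed to 708 and 718 CPM in wild-type and 565 and 582 CPM in mutant libraries. Of the 9, 8 had a negative log2 fold change and 2 fell (SOX10, -0.56, and GPR17, -0.50). PDGFRA (-0.44, edgeR quasi-likelihood adjusted p = 0.0554) and CSPG4 (-0.13, adjusted p = 0.862) did not pass, and VCAN was positive (0.14). The 10 microglial markers summed to 176 and 187 CPM in wild-type and 137 and 94.1 CPM in mutant libraries. Of the 10, 9 had a negative log2 fold change and 3 fell (CSF1R, -0.84, CX3CR1, -0.71, and LAPTM5, -0.75). The groups overlapped for C1QA (140, 61, 130 and 63 counts, -0.10), C1QB (18, 7, 18 and 5 counts, -0.16) and C1QC (38, 20, 55 and 29 counts, 0.49). For these 3 genes replicate 1 was above replicate 2 in each group. The 7 astrocyte markers summed to 3927 and 3650 CPM in wild-type and 2601 and 2955 CPM in mutant libraries, with 7 of 7 log2 fold changes negative and 1 called lower (the glutamate transporter SLC1A2, -0.61). The 7 oligodendrocyte markers, which mark cells that no longer divide, summed to 3383 and 3353 CPM against 1285 and 1234 CPM, and all 7 fell. The endothelial and pericyte sum was 326 and 340 against 302 and 306 CPM, with 0 of 10 called by edgeR or DESeq2 (0 higher and 1 lower at an unadjusted p under 0.05). The part of these cell types in the mitotic values was not tested.

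Markers of neural progenitors and of other regions are given in the same way, beside the same shares over all genes tested (1.57% called lower and 0.661% higher). The 14 radial glia and intermediate progenitor markers summed to 1886 and 1861 CPM in wild-type and 1940 and 1757 CPM in mutant libraries, with NEUROG1 at 0 in every library 8 of 13 tested at a negative log2 fold change and 1 of 13 higher (VIM, log2 fold change 0.44, adjusted p = 0.0481, not called by DESeq2). The 9 ganglionic eminence and subventricular markers summed to 123 and 114 against 123 and 124 CPM. Of the defining markers of cerebellar granule progenitors, ATOH1 was counted 1, 1, 0 and 0 times and BARHL1 0, 0, 1 and 0 times. That list's summed level was 91.7, 43.7, 37.5 and 36.4 CPM and came mostly from genes shared with other brain regions such as ZIC1, which was highest in wild-type replicate 1. CBLN1 fell in that list (-1.01), at 215, 108, 85 and 80 counts. The 6 erythroid markers with a count row held 69 counts or fewer in each library, with HBM at 0. The globins HBB, HBA1, HBA2 and HBG1 were not matched to a row, so this low sum does not measure blood content. The thalamic sum was 367, 206, 238 and 238 CPM. Without wild-type replicate 1 the mitotic median was -0.31 and that of the other mitotic genes -0.23. The choroid plexus and ependyma sum was 21.9, 26.1, 121 and 21.6 CPM, and without mutant replicate 1 these medians were -0.34 and -0.25. Most of that sum in mutant replicate 1 was TTR (8, 89, 1244 and 87 counts). CLIC6 (13, 24, 57 and 19 counts), KCNJ13 (24, 20, 43 and 11) and FOXJ1 (90, 138, 176 and 141) were also highest there. FOLR1 (71, 44, 40 and 32 counts), OTX2 (78, 5, 23 and 0) and PIFO (6, 1, 1 and 1) were highest in wild-type replicate 1. Neuronal markers summed to 8139 and 8076 against 8304 and 8313 CPM, although 7 of 9 had a negative log2 fold change and 2 fell, GAD2 (-0.46) and NEFM (-0.48). STMN2, which had the highest count in that list and did not pass, was at 0.31.

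**Figure D5:**
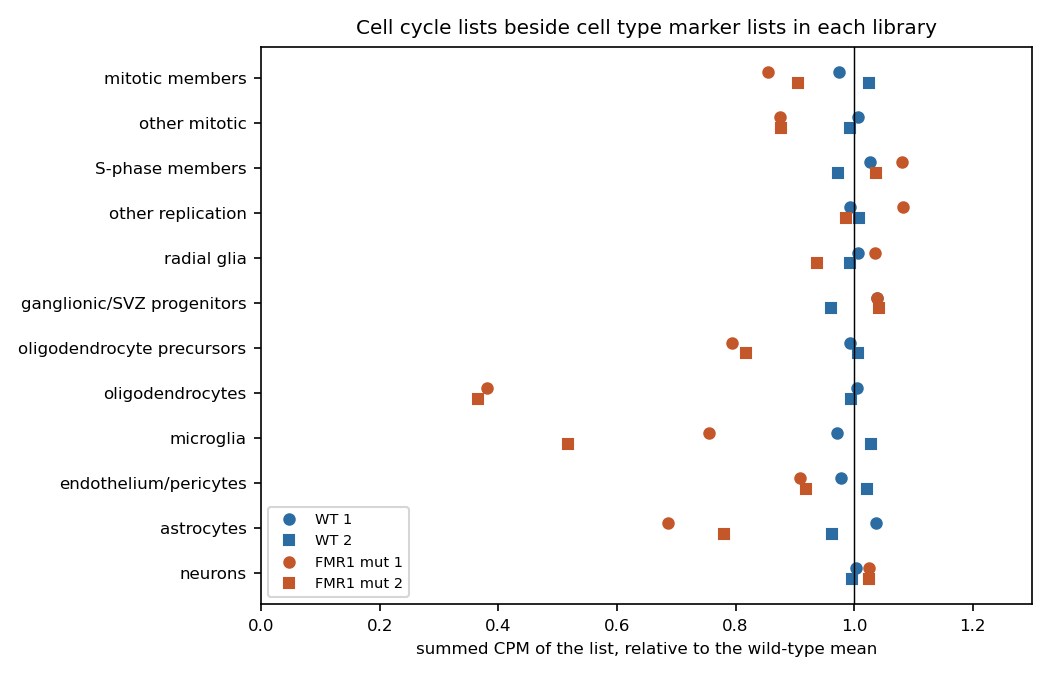
Summed CPM of each list in each library divided by its wild-type mean (x axis), for cell cycle lists and marker lists (blue wild-type, orange FMR1 mutant; circles replicate 1, squares replicate 2). The mitotic lists, oligodendrocyte precursors, oligodendrocytes, microglia, vessels and astrocytes lie below 1 in both mutant libraries, while the S-phase members and the ganglionic progenitors do not.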

How the data were processed

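Per the labels' protocols, TRIzol was used to take up the RNA, DNase I removed DNA, and directional libraries were made from the poly(A) fraction. Trimmomatic 0.38 and STAR 2.7.10a are named in the submitters' processing notes. Not given in the sources used here are the counter, its strand setting, the annotation and the genome build, so reads of a gene and of an antisense partner may not be told apart. The authors deposited raw counts per gene, with no normalization, and each column was assigned by its library name in the labels.

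The analysis used edgeR 4.0.16 under R 4.3.3: filterByExpr at a minimum count of 10, TMM scaling, and the quasi-likelihood test (robust) of mutant against wild-type over all 16956 genes, with Benjamini-Hochberg adjustment at 0.05. The fit had 2 residual degrees of freedom, a median prior of 31.6 degrees of freedom and a biological coefficient of variation of 11.3%. The SE is the log2 fold change divided by the square root of F, and intervals are 95%. Every adjusted p without another tool's name is from this test. Counting intervals are exact conditional binomial ones and cover counting error only. Replicates differed by more than sampling noise (chi-square per degree of freedom 7.29 and 6.91). The test was checked on simulated data. Alternatives were RLE and upper quartile scaling, DESeq2 1.42.0 on all rows, no filter, a mean of 1 CPM, leaving out each library, a block for the replicate number and an adjusted p of 0.1. The members, roles and lists were chosen with earlier results of these data known. All members are described. Within each role the smallest p chose the members given an adjusted p, which TOP2A also has and MCM3 and GINS2 lack. Other members of highest CPM in a role are given by counts, log2 fold change and SE. Of the other cell cycle lists, the called genes were named, or the 2 of smallest p where fewer than 2 were called.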

Additional observations from a re-analysis of the deposited data

How the results depend on the processing

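The 2 member calls held under RLE and upper quartile scaling, without a low-count filter, with the replicate block and at an adjusted p of 0.1. The count of called members was 0 by DESeq2 and 1 with a mean of at least 1 CPM, and between 0 and 2 with 1 library left out (0 without mutant replicate 2). The other cell cycle lists had 2 calls, and between 0 and 3 with 1 library left out (0 without mutant replicate 1, 1 without wild-type replicate 1 or mutant replicate 2). Among all genes tested, 378 were called, 244 by DESeq2, 633 without a filter, and between 163 (without mutant replicate 1) and 562 (without wild-type replicate 2) with 1 library left out. The mitotic median ranged from -0.34 to -0.17 and the S-phase median from -0.0002 to 0.14 in those fits, where the group left with 1 library is assumed to vary like the other. The S-phase median under the other settings stayed between 0.07 and 0.09. Labels share replicate numbers but no stated pairing. Deviations of same-numbered libraries correlated at 0.02 across genes, and the replicate block gave 493 calls and turned the sign of MCM6 (0.0081) and KIF23 (-0.016).

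Signs of 14 members near 0, none of them called in any of those fits, turned with 1 library left out. Their log2 fold changes ranged from -0.012 to 0.58 for AURKA, -0.0037 to 0.43 for CCNA2, -0.26 to 0.39 for CDC20, -0.61 to 0.10 for CENPE, -0.14 to 0.17 for GINS2, -0.57 to 0.45 for KIF23, -0.11 to 0.27 for MCM2, -0.22 to 0.25 for MCM6, -0.19 to 0.51 for NCAPG, -0.57 to 0.12 for NUSAP1, -0.62 to 0.069 for PLK1, -0.043 to 0.17 for PRC1, -0.14 to 0.077 for SMC2 and -0.42 to 0.0052 for SMC4. The sums without the most abundant genes, without MKI67 and SKA1 or without CIT, and the mean log2 level, were added after seeing the data. At 12331639 to 13455702 counts per library, members with under 30 counts per library have SEs of about 0.4 or more. Changes below 2-fold were not detectable for them, and larger ones could be missed. CCNB2, for example, did not pass at a log2 fold change of -1.12 (SE 0.58).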

Other observations

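Genes next to 3 members singled out after their values were seen were read from RefSeq gene order in the assembly calJac240_pri, which may not be the authors' build. CXXC1 and MAPK4, the nearest tested coding genes on each side of SKA1, had log2 fold changes of 0.35 (SE 0.13, adjusted p = 0.199) and 0.06 (SE 0.16, adjusted p = 0.930), so neither shared the low counts of SKA1. PTPRE and MGMT beside MKI67 had values of -0.24 (adjusted p = 0.450) and -0.09 (adjusted p = 0.972). ELOVL4 and BCKDHB beside TTK had values of -0.002 (adjusted p = 0.997) and -0.06 (adjusted p = 0.936), while TTK itself was at 0.78.

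Of the other cell cycle lists, 9 genes were too scarce to be tested. At such low counts the position of the libraries is largely open to counting error. Over all genes tested, 21.8% had both mutant libraries below both wild-type libraries and 21.4% had both above. Both mutant libraries were below both wild-type libraries for SPC25 (7, 13, 4 and 2 counts, wild-type libraries first), EXO1 (11, 9, 6 and 4), E2F2 (10, 10, 7 and 3) and CDKN3 (4, 8, 3 and 3). The groups overlapped for CDCA2 (9, 6, 11 and 5), SKA3 (6, 8, 6 and 11), KIF18B (8, 14, 8 and 8), E2F8 (4, 2, 5 and 1) and CDKN2A (4, 0, 2 and 2).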
